A study of Mus musculus with 12 samples.

Results

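Of the 20308 gene symbols in the deposited table, 61 belong to 4 gene families that are best known from the placenta. They were taken by symbol: 13 Psg genes, 25 Prl genes, 15 Ceacam genes and 8 placental cathepsins (Cts3, Cts6, Cts7, Cts8, Ctsj, Ctsm, Ctsq and Ctsr). The families were selected on counts of these same 12 libraries, in which 1 member, Psg23, was known to be high in Dnmt1cKO, so the levels below describe that contrast and support nothing about it. The measured tissue was the epithelium of the urogenital sinus, the tube from which the bladder neck, urethra and prostate form, in C57BL/6J mouse embryos at embryonic day 15.5. In the 8 Dnmt1cKO libraries Dnmt1 had been deleted in this epithelium by a Cre driven from Shh, a gene of the epithelium itself, and the 4 Control libraries were wildtype. Each lysate held tissue of several embryos, and the labels give neither the number of embryos nor the deleted exons.

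Dnmt1 encodes the maintenance DNA methyltransferase, which restores CG methylation on the new strand after replication. Pregnancy-specific glycoproteins (Psg) are secreted proteins of the immunoglobulin superfamily, made in rodents by trophoblast giant cells and spongiotrophoblast. The Prl genes encode placental lactogens, proliferins and other prolactin-like hormones, and the placental cathepsins are lysosomal proteases of trophoblast that arose by duplication in rodents. The Ceacam genes are relatives of Psg; some encode adhesion proteins of many epithelia and others are restricted to trophoblast, so the whole of this family cannot be called placental.

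Psg23 held most of the counts of these families. It and Ceacam1 had counts in every Dnmt1cKO library, while 49 of the 61 members (80.3%) had no count in any of the 12 libraries, against 22.1% of all genes in the table. All 25 Prl genes were silent, as were 7 of 13 Psg genes, 10 of 15 Ceacam genes and 7 of 8 placental cathepsins. Another 3 members had trace counts, fewer than 10 over all libraries, and 9 had 10 or more. Psg23 supplied 11969 of the 14140 counts that all members together had in Dnmt1cKO (84.6%), and the 61 members had 134 counts in Control.

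A silent neighbour of Psg23 has nearly the same sequence before its start. The 250 bases upstream of the RefSeq start of Psg23 (chr7:18616502-18616751, minus strand) are shown beside those of its flanking genes Psg21 (chr7:18656726-18656975, minus strand), which had no count in any library, and Psg27 (chr7:18567306-18567555, minus strand), likewise silent. They are from RefSeq on GRCm38.p6, the assembly that the build name mm10 denotes, read 5′ to 3′ on the strand of the gene, with each CG dinucleotide, the substrate of Dnmt1, in capitals.

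Psg23: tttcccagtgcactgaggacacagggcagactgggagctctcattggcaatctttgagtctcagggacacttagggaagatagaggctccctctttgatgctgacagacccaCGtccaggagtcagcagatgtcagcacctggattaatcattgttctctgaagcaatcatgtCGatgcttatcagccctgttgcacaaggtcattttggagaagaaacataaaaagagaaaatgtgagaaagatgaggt
Psg21: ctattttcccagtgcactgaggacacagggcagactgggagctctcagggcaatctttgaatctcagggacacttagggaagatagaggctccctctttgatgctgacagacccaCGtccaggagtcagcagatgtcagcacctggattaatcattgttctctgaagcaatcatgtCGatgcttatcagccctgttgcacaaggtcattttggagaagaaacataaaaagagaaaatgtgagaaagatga
Psg27: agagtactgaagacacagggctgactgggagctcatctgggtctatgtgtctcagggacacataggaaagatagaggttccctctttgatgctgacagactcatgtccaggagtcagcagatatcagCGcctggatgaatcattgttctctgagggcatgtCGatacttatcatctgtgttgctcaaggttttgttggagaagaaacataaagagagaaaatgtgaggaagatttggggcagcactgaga

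Psg23 and Psg21 matched at 244 of 246 aligned bases (99.2%), with 2 mismatches, 1 gap inside the alignment and 7 unpaired bases at its ends. Both carried 2 CG dinucleotides at matching places, 138 and 77 bases before the start in Psg23 (positions -138 and -77) and at -135 and -74 in Psg21. Psg27 matched Psg23 at 86.1% of aligned bases and carried its 2 CG at -123 and -89. The 9 other Psg genes with a window ranged from 47.7% (Psg20) to 99.2% (Psg21) identity with Psg23, and both ends of this range are silent genes. No methylation was measured in these libraries.

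Depth limits what silence means here. The 8 Dnmt1cKO libraries held 4007505 to 11970893 counts and 69328479 together. Controls 1 to 3 held 1613499 to 7577682, the library labelled Control 4 held 543573, and the 4 held 12649930 together. CPM is the count per 1e6 counts of a library, scaled between libraries by the trimmed mean of M values (TMM). Pooled over a group, a total of 0 counts allows up to 0.0433 counts per 1e6 in Dnmt1cKO and up to 0.237 in Control. These limits are 3 counts of the group total, leave out TMM scaling, cover counting error only and assume the same level in every library. The Control limit is 5.48 times looser. For 1 library alone, 3 counts of its total came to 0.251 to 0.749 per 1e6 in Dnmt1cKO and 0.396 to 5.52 in Control. The pooled limits therefore do not bound a mean of library levels. Dnmt1 itself stood at 22.8 to 96.9 CPM in Dnmt1cKO and at 114 to 237 CPM in Controls 1 to 3. The library labelled Control 4 had a single count of Dnmt1 (2.84 CPM), below every Dnmt1cKO library and against the label. Markers of the labelled epithelium were present in both groups, with a summed level of 4680 to 7740 CPM in Dnmt1cKO and 3730 to 25300 CPM in Control. The sums hide differences between Control libraries. In Control 3, Trp63, Shh, Foxa1 and Krt19 stood at 2.26, 3.77, 2.26 and 11.3 CPM, against 230, 218, 78.1 and 541 CPM in Control 1. Cldn4, Krt5 and Cdh1 were also lower in Control 3 than in Control 1, while Epcam, Krt8 and Krt18 were higher. In the library labelled Control 4, Cdh1 stood at 12800 CPM. Stromal markers summed to 261 to 5960 CPM in Dnmt1cKO and 1260 to 9480 CPM in Control, and immune markers to 9.17 to 58.1 CPM in Dnmt1cKO and 0 to 211 CPM in Control. Endothelial markers summed to 9.9 to 105 CPM in Dnmt1cKO and 39.8 to 310 CPM in Control, and erythroid markers to 6.19 to 1060 CPM in Dnmt1cKO and 28.4 to 2850 CPM in Control. Of these 5 lists edgeR called 0 genes. Before adjustment edgeR had a p under 0.05 for 2 epithelial, 4 stromal and 3 endothelial genes that were lower, for 1 immune gene that was higher and for 0 erythroid genes. DESeq2 called 2 epithelial, 2 stromal and 1 endothelial gene lower and 0 of the immune and erythroid genes. Their part in the results was not tested.

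**Figure D1:**
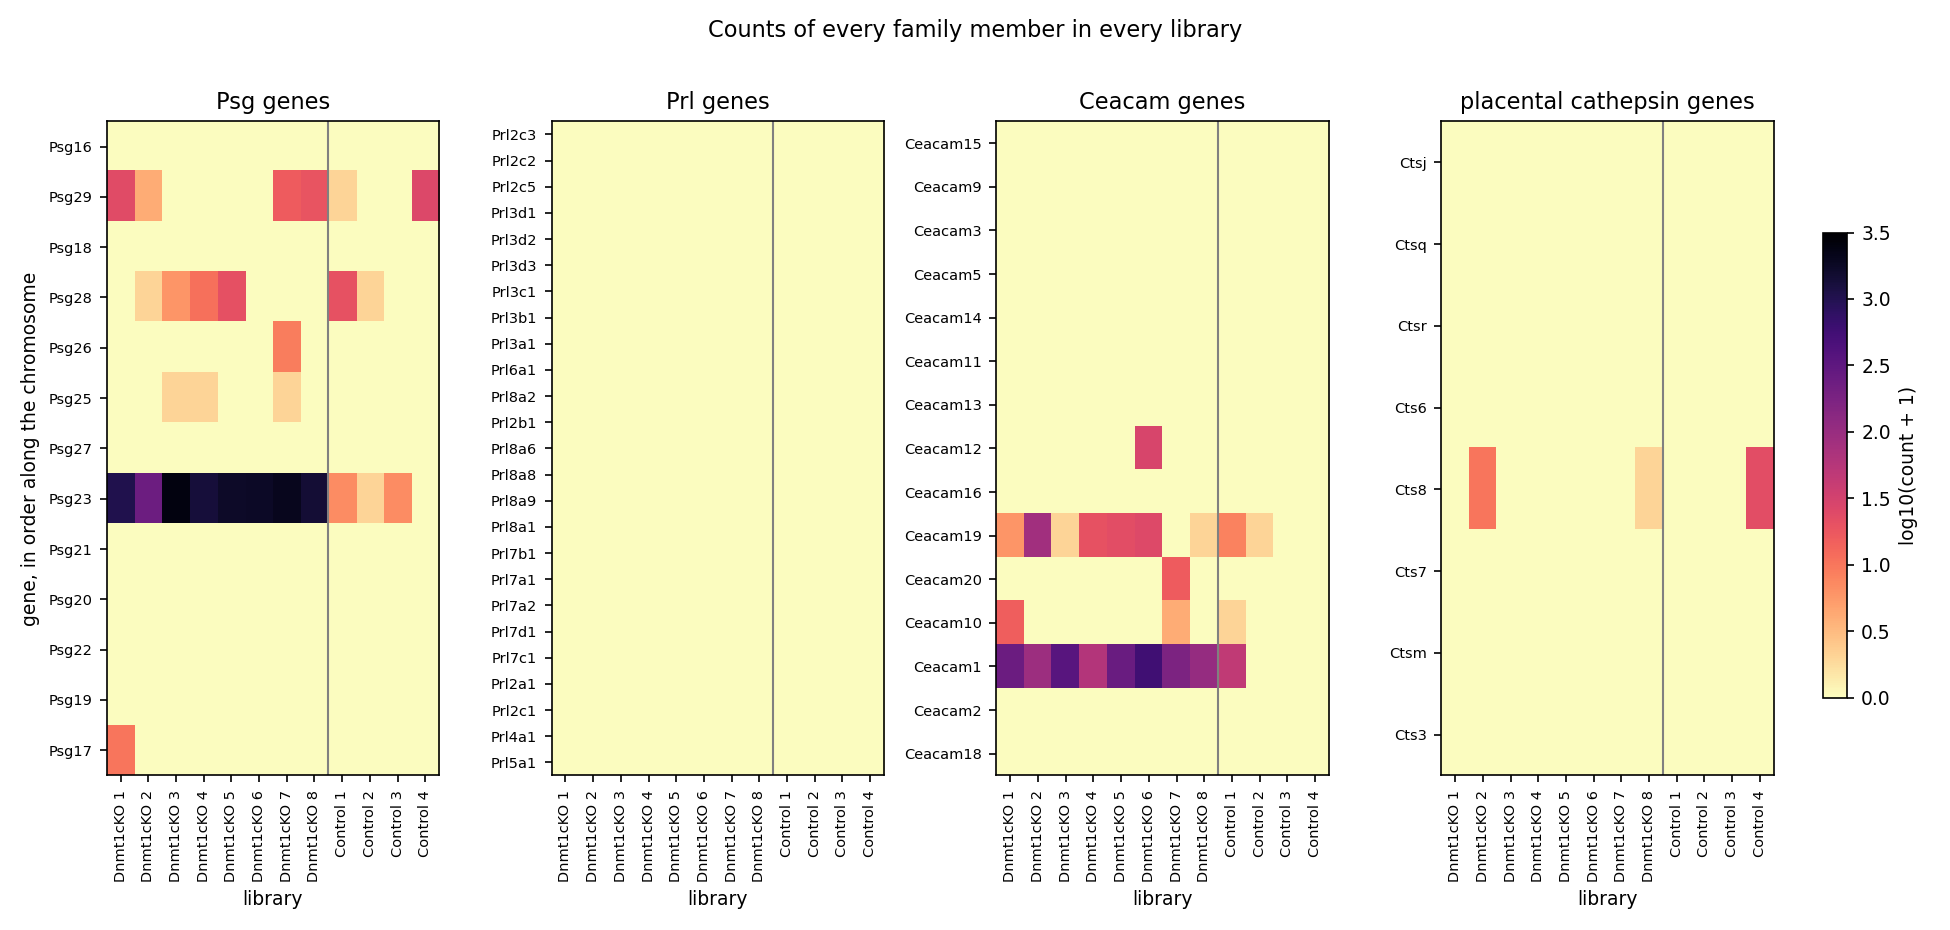
Counts of all 61 members (rows, in chromosomal order within each family) in the 8 Dnmt1cKO libraries and, right of the grey line, the 4 Control libraries (columns), coloured as log10(count + 1). The Prl panel is empty throughout, and in the Psg panel only the Psg23 row is dark, in all 8 Dnmt1cKO libraries.

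Psg23 (chromosome 7, 18606343 to 18616501, minus strand) encodes a secreted glycoprotein reported to raise growth factors of blood vessel formation in cultured cells. Its level in Dnmt1cKO had a minimum of 53.2 CPM, a median of 164 CPM and a maximum of 399 CPM. In Controls 1, 2 and 3 it stood at 0.738, 0.337 and 4.53 CPM, and in the library labelled Control 4 it had no count. All 8 Dnmt1cKO libraries thus lay above all 4 Control libraries, and the lowest Dnmt1cKO level was 11.7 times the highest Control level. The means were 174 ± 106 CPM in Dnmt1cKO and 1.40 ± 2.11 CPM in Control (SD, n = 8 and 4). The fitted log2 fold change, Dnmt1cKO over Control, was 6.99 ± 0.91 (SE), or 127-fold, and it was 8.25 without Control 3, which holds 6 of the 13 Control counts. In bulk tissue, more cells that make a transcript and more transcript per cell cannot be told apart.

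Psg23 varied 7.5-fold among the Dnmt1cKO libraries themselves. Dnmt1cKO 1 and 2 held the lowest levels, at 75.6 and 53.2 CPM, and Dnmt1cKO 8 the highest, while the other 5 stood between 137 and 207 CPM. Sample descriptions carry a code of the letter b and a number, which the labels do not explain, and the codes 4 to 7 occur in both groups. Within code 4, Psg23 stood at 192 CPM in Dnmt1cKO and 0.738 CPM in Control. Within code 5 it stood at 137 CPM in Dnmt1cKO and 0.337 CPM in Control, and within code 6 at 151 CPM in Dnmt1cKO and 4.53 CPM in Control. Within code 7 the mean of 3 Dnmt1cKO libraries was 261 CPM, and the library labelled Control 4, the only Control there, had no count. Because the Psg23 levels of the groups did not overlap, the direction within each of the 4 codes was fixed beforehand. The split by code is therefore no separate test of the difference. On the mean level in Dnmt1cKO, Psg23 stood above 94.8% of all genes in the table, at rank 1054 without correction for transcript length.

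**Figure D2:**
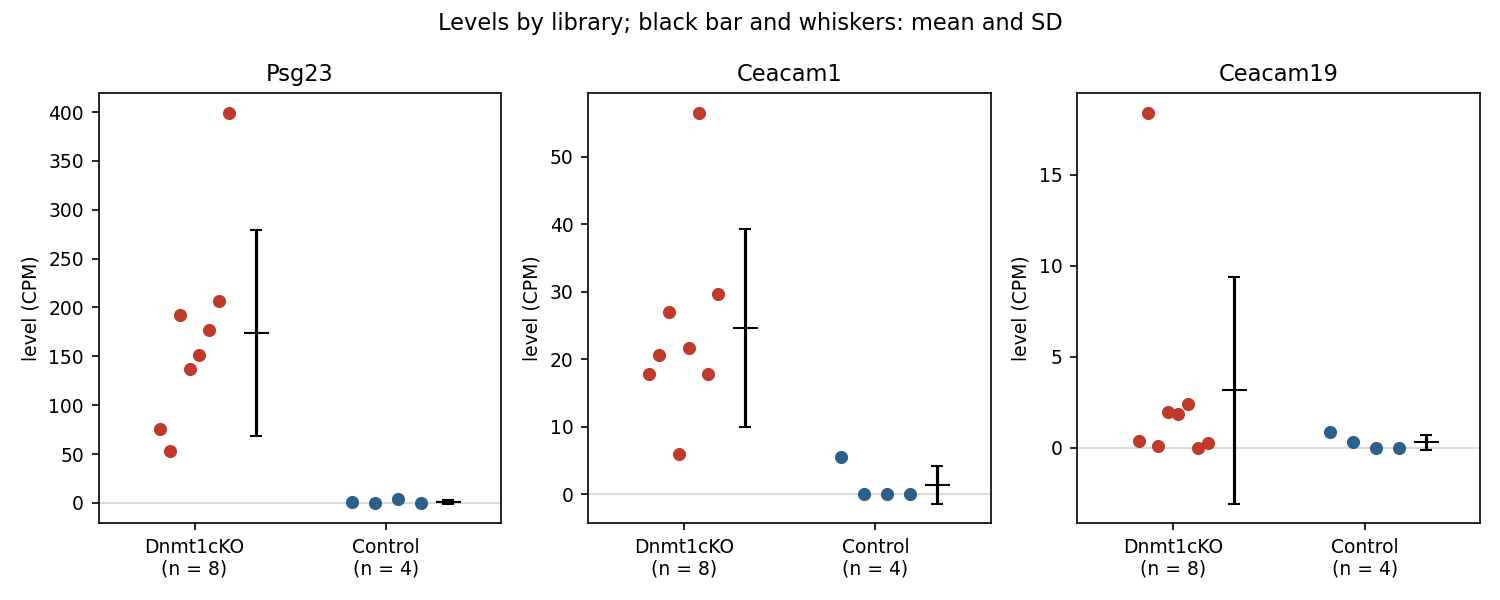
Level in CPM (vertical axis, linear, own scale per gene) of Psg23, Ceacam1 and Ceacam19 in each Dnmt1cKO and Control library; points are libraries, and the black bar with whiskers is the mean with SD. The Dnmt1cKO points of Psg23 run from 53.2 to 399 CPM with every Control point at or under 4.53 CPM, and for Ceacam19 a single Dnmt1cKO library at 18.4 CPM stands far above the rest.

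The genes beside Psg23 in its cluster were silent or nearly so. Psg27 ends 39 kb before Psg23 and Psg21 starts 30.2 kb after it, and neither had a count in any library. Of the 12 family members whose centres lie within 600 kb of the Psg23 start, the other 11 had mean levels of 0 to 0.424 CPM in Dnmt1cKO and 0 to 0.668 CPM in Control. Psg20, Psg22, Psg19 and Psg18 in this stretch had 0 counts, and so did Psg16, a Psg gene also transcribed in brain that lies outside it. All Psg genes other than Psg23 had 115 counts together in Dnmt1cKO, so that Psg23 held 99.0% of the Psg counts there. Of the genes within 600 kb that are outside the families, 1 was called by edgeR. This was Dmpk, a muscle protein kinase centred 472.2 kb from the Psg23 start, picked after its values were seen. It was lower, at 11.9 CPM in Dnmt1cKO and 95.4 CPM in Control (log2 fold change -3.01, edgeR adjusted p = 0.0434). Over all 12761 genes tested, edgeR called 1.55% lower and 1.03% higher.

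**Figure D3:**
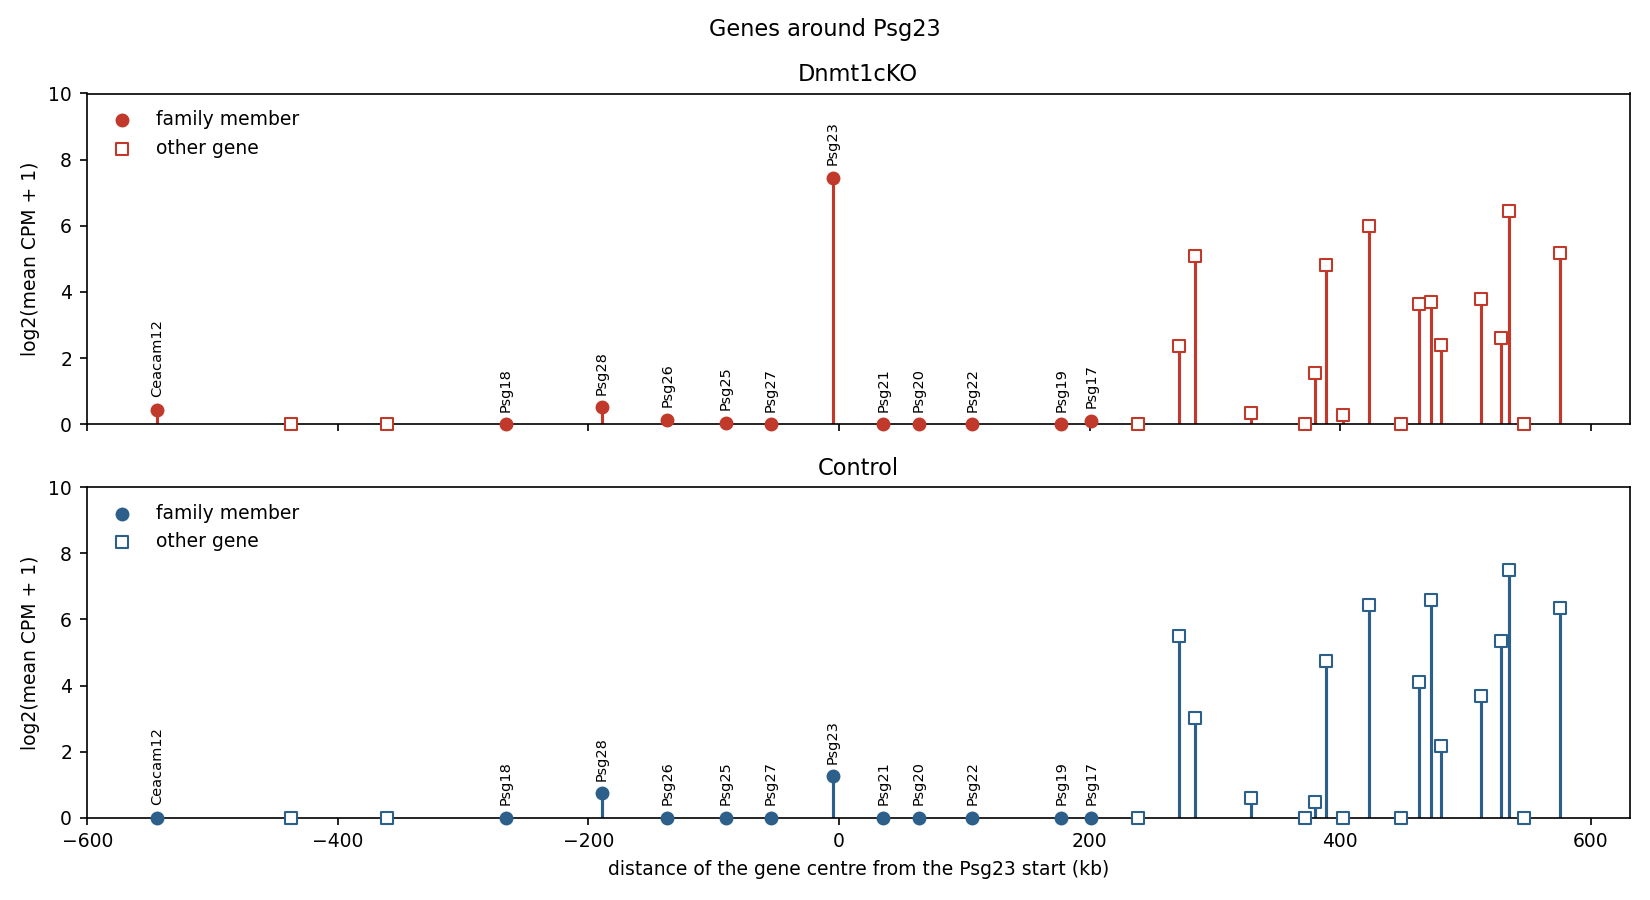
Mean level, as log2(mean CPM + 1), of the genes within 600 kb of the Psg23 start, by distance of the gene centre in kb; the upper panel is Dnmt1cKO and the lower panel Control, filled circles are family members and open squares other genes. Psg23 is the only family member above 1 CPM in Dnmt1cKO, between silent neighbours on both sides.

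Because Psg genes are close copies, reads can fit several of them. In the GENCODE M21 transcripts, 37.2% of the 50-base words of Psg23 also occur in transcripts of other genes, most often Psg21 (28.8% of the words of Psg23). In turn 26.9% of the words of Psg21 occur elsewhere, and RSEM assigned it 0 counts in every library. Words were matched exactly, so near matches did not count as shared. Psg23 had fractional expected counts in 11 of 12 libraries. Which share of its counts came from ambiguous reads was not tested, and the read length is not given in the sources used here.

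The remaining Psg genes with counts stood far below Psg23 in Dnmt1cKO. Psg29 stood at 0 to 5.13 CPM in Dnmt1cKO (median 0.337 CPM), and its Control values were 0.123, 0 and 0 CPM in Controls 1 to 3 and 71.1 CPM (25 counts) in the library labelled Control 4. The groups overlapped. Its log2 fold change was -3.93 ± 1.68 (SE) and turned to 3.91 without that library, past the threshold in neither fit. Psg28 stood at 0 to 1.75 CPM in Dnmt1cKO and at 2.34 and 0.337 CPM in Controls 1 and 2, with no count in the other Control libraries. Psg17, whose product binds the tetraspanin CD9, had 9 counts in Dnmt1cKO 1 and Psg26 had 8 in Dnmt1cKO 7, and neither had any elsewhere. Psg25 had 1 count in each of 3 Dnmt1cKO libraries. Psg17, Psg25 and Psg26 had no Control count, which at the lower Control depth decides no direction. The silent Psg genes were Psg16, Psg18, Psg19, Psg20, Psg21, Psg22 and Psg27.

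No Prl gene had a count in any of the 12 libraries. This covers the placental lactogens of giant cells (Prl3d1, Prl3d2, Prl3d3 and Prl3b1), the proliferins, which promote vessel growth (Prl2c2, Prl2c3 and Prl2c5), the proliferin-related Prl7d1, which restrains it, and the decidual hormone Prl8a2. The others were Prl2a1, Prl2b1, Prl2c1, Prl3a1, Prl3c1, Prl4a1, Prl5a1, Prl6a1, Prl7a1, Prl7a2, Prl7b1, Prl7c1, Prl8a1, Prl8a6, Prl8a8 and Prl8a9. Of their relatives outside the rule, pituitary prolactin (Prl) had 19 counts in Dnmt1cKO and 0 in Control, growth hormone (Gh) had none, and the prolactin receptor (Prlr) had 0 counts in Dnmt1cKO and 2 in Control. The most abundant of the list, Stat5b, a transcription factor that such hormones activate, and Ghr, the growth hormone receptor, averaged 41.1 ± 16.1 and 30.6 ± 15.2 CPM in Dnmt1cKO, against 56.9 ± 47.8 and 85.3 ± 112 CPM in Control (SD, n = 8 and 4). Of 8 genes in this list of prolactin and growth hormone relatives 5 were tested and 0 called by edgeR (0 also at an unadjusted p under 0.05 and by DESeq2), with a median log2 fold change of -1.32, beside 0.22 over all tested genes.

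Ceacam1 and Ceacam19 were the Ceacam genes with counts in most Dnmt1cKO libraries. Ceacam1 (chromosome 7, 25461702 to 25477647) encodes an adhesion protein of epithelial and immune cells. Its level in Dnmt1cKO had a minimum of 5.98 CPM, a median of 21.2 CPM and a maximum of 56.5 CPM. Control 1 stood at 5.53 CPM, and Controls 2 and 3 and the library labelled Control 4 had no count. The groups did not overlap, although Dnmt1cKO 4 lay only just above Control 1. The means were 24.6 ± 14.7 CPM in Dnmt1cKO and 1.38 ± 2.77 CPM in Control (SD, n = 8 and 4). The fitted log2 value, 3.78 ± 1.25 (SE), missed the threshold in edgeR. It passed in DESeq2 (3.65) and in edgeR without Control 1 (10.49), where every remaining Control is at 0 and the fitted value is no bound. Within codes 4 and 5 Ceacam1 stood at 27.0 and 5.98 CPM in Dnmt1cKO, against 5.53 and 0 CPM in Control, and within codes 6 and 7 at 21.7 and 34.7 CPM in Dnmt1cKO, against 0 CPM in Control. Of its 50-base words 30.4% occur elsewhere, almost all in Ceacam2, which had no count in any library. Per kilobase of the longest transcript, the level of Psg23 in Dnmt1cKO was 79.8 ± 48.5 CPM and that of Ceacam1 6.74 ± 4.02 CPM (SD, n = 8).

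Ceacam19 depended on 1 library. It stood at 18.4 CPM (82 counts) in Dnmt1cKO 2 and at 0 to 2.40 CPM in the other Dnmt1cKO libraries. Controls 1 and 2 stood at 0.861 and 0.337 CPM, and the other Control libraries had no count. The groups overlapped, and edgeR did not call the gene (log2 fold change 2.89 ± 1.89, SE). Dnmt1cKO 2, which held the highest Ceacam19 level, held the lowest Psg23 level.

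The other Ceacam genes had few counts or none. Ceacam12 had 28 counts in Dnmt1cKO 6, and Ceacam20, of intestinal brush borders, had 15 in Dnmt1cKO 7, with 0 in every other library for both. Ceacam10, which is secreted into seminal fluid, had 14 counts in Dnmt1cKO 1 and 3 in Dnmt1cKO 7, and 1 count in Control 1. Ceacam2, Ceacam3, Ceacam5, Ceacam9, Ceacam11, Ceacam13, Ceacam14, Ceacam15, Ceacam16 and Ceacam18 were silent; among them Ceacam16 belongs to the tectorial membrane of the inner ear, and Ceacam9, Ceacam11, Ceacam13, Ceacam14 and Ceacam15 are known from trophoblast. Such counts in 1 library are common in this table. Of 1156 genes with 8 to 40 counts in all, 503 (43.5%) had every count in a single library, and among the 6 members in that range it was 4.

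Of the placental cathepsins only Cts8, a protease of trophoblast giant cells, had counts. It had 9 counts (2.02 CPM) in Dnmt1cKO 2 and 1 in Dnmt1cKO 8, and 21 counts (59.7 CPM) in the library labelled Control 4, with 0 in every other library. Of its 50-base words 52.4% occur in other genes, so its counts are uncertain. Cts3, Cts6, Cts7, Ctsj, Ctsm, Ctsq and Ctsr were silent. The lysosomal cathepsins and related genes outside the rule were more widely detected. Of 18 in a list, 14 were tested and edgeR called 0 and DESeq2 called 1 in each direction. Before adjustment edgeR had a p under 0.05 for 2 that were higher and 1 that was lower. The list had a median log2 fold change of 0.33, beside 0.22 over all tested genes. Cathepsin D (Ctsd), an aspartic protease and the most abundant of the list, averaged 389 ± 49.6 CPM in Dnmt1cKO and 247 ± 211 CPM in Control (SD, n = 8 and 4). Cathepsin L (Ctsl), a relative of the placental cathepsins, averaged 172 ± 28.3 CPM in Dnmt1cKO and 67.7 ± 82.3 CPM in Control (SD, n = 8 and 4).

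Only 4 of the 61 members (Psg23, Psg29, Ceacam1 and Ceacam19) passed the low count filter and could be tested, and the other 57 could not. Psg23 was the 1 member called higher by edgeR (Benjamini-Hochberg adjusted p under 0.05 over all genes tested), where 1.03% of the 12761 genes tested were called higher, and 0 members were called lower, where 1.55% were. At an unadjusted p under 0.05 edgeR had 2 members higher and 1 (Psg29) lower, and DESeq2 called 2 higher and 0 lower. The shares of all genes under these criteria are not given here. The unadjusted and DESeq2 counts of members and of the lists thus have no background beside them. Psg23 and Ceacam1 lay wholly above the Control libraries, as did 2.59% of the genes tested. No member lay wholly below, against 0.486% of them. The contrast had been used to choose the families, so these counts are descriptions. A rule on counts alone, a sum of at least 10 over the Dnmt1cKO libraries from at least 2 of them with a sum of at most 3 over Control, was met by 8.34% of all genes in the table and by 1 member, Ceacam10, whose counts came mostly from Dnmt1cKO 1. Psg23 did not meet it because of its 13 counts in Control.

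Libraries differed in depth, so detected members were counted at full and at equal depth. Between 4 and 7 members had a count in each Dnmt1cKO library, and 6, 3, 1 and 2 had one in Controls 1, 2 and 3 and the library labelled Control 4. With every library thinned to 543573 counts in 1 random draw, 2 to 5 members were found in each Dnmt1cKO library and 1 to 2 in each Control library. Psg23 kept 31 to 199 counts in each thinned Dnmt1cKO library, against 0 to 2 in the Control libraries.

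Upstream windows of the members were poor in CG throughout. RefSeq windows were matched for 52 of the 61 members, and over the 250 bases before the start the motif CG, which reads the same on both strands, occurred 0 to 5 times with a median of 2. At least 1 CG stood in 82.7% of the member windows and in 93.2% of those of the 15173 genes of the table that have a window, whose median was 11. All 52 members had at most 5, as did 34.9% of these 15173 genes. Among the genes called higher in Dnmt1cKO 88 have a window, with a median of 6. Psg23 with 2 stood at the median of the members, and Ceacam1 carried 3. The Ceacam1 window (chr7:25477626-25477875, minus strand) is counted from a start inside the gene span given above, which ends at 25477647.

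**Figure D4:**
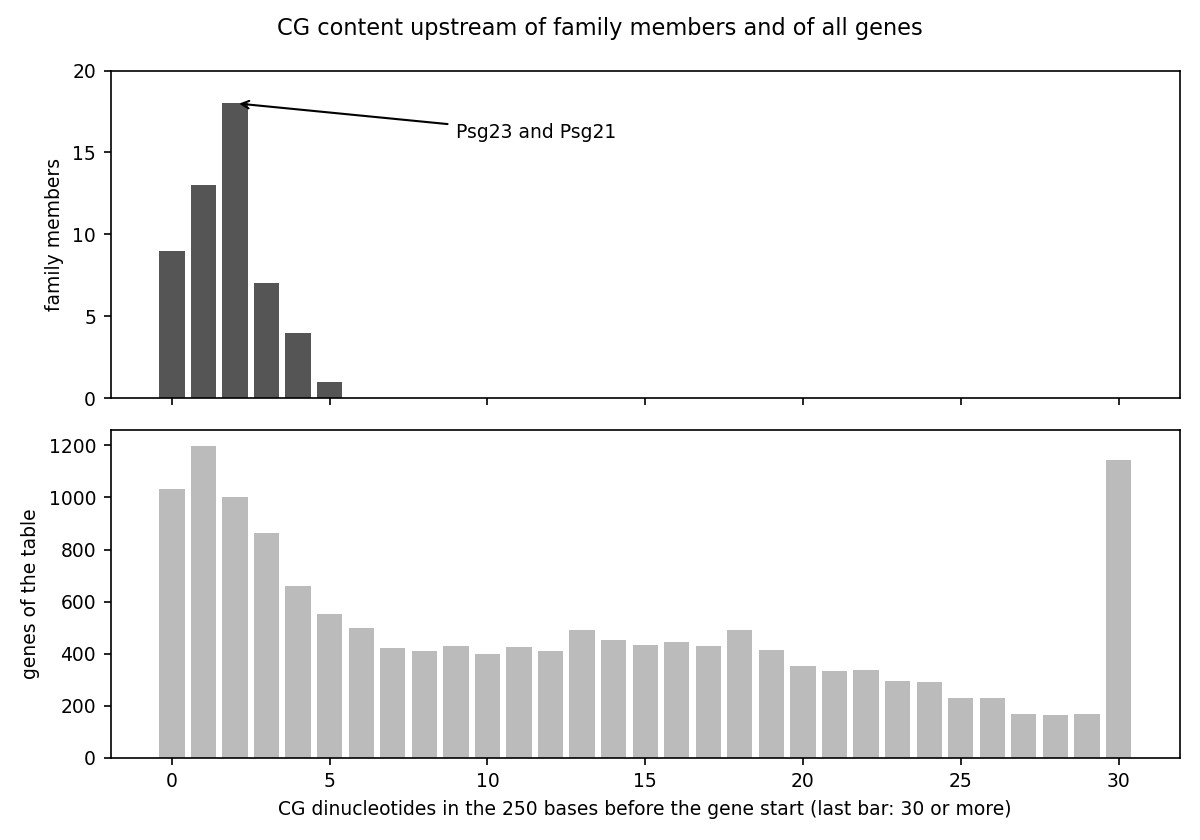
Number of CG dinucleotides in the 250 bases before the gene start (horizontal axis, last bar 30 or more) against the number of genes (vertical axes, linear), above for the 52 members with a window and below for the genes of the table. The members end at 5, the median of the genes of the table with a window is 11, and the arrow marks the bar at 2 that holds both Psg23 and silent Psg21.

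A list of 60 other genes of the placenta, chosen with earlier results of these data known, had changes in both directions. Of its 59 genes with measured rows, 16 had no count in any library, among them Tpbpa and Tpbpb of spongiotrophoblast, Cdx2 and Eomes of trophoblast stem cells, Syna of syncytiotrophoblast, and Plac1 and Esx1. Of 35 tested, edgeR called 1 higher and 3 lower, where 1.03% and 1.55% of all genes tested were, and at an unadjusted p under 0.05 there were 6 higher and 7 lower. DESeq2 called 2 higher and 7 lower, and for the unadjusted and DESeq2 counts no share over all genes is given. The list had a median log2 fold change of 0.04 beside 0.22 over all tested genes. Rhox6, a homeobox gene of placenta and germ cells, averaged 69.1 ± 14.6 CPM in Dnmt1cKO and 1.35 ± 2.62 CPM in Control (SD, n = 8 and 4; edgeR adjusted p = 0.00325). Its values were 44.4 to 94.3 CPM in Dnmt1cKO, and 0.123, 0 and 5.28 CPM in Controls 1 to 3 with no count in the library labelled Control 4, so the groups did not overlap. The 3 called lower also act outside the placenta. Cdkn1c, an imprinted cell cycle inhibitor, averaged 373 ± 170 CPM in Dnmt1cKO and 1140 ± 854 CPM in Control (SD, n = 8 and 4; edgeR adjusted p = 0.0201). Gata3, a transcription factor of urothelium and trophoblast, averaged 109 ± 32.9 CPM in Dnmt1cKO and 320 ± 188 CPM in Control (SD, n = 8 and 4; edgeR adjusted p = 0.0457). Gcm1, which drives syncytiotrophoblast formation, stood at 0.521 to 3.51 CPM in Dnmt1cKO, and at 12.5, 34.4 and 309 CPM in Controls 1 to 3 and 0 in the library labelled Control 4 (log2 fold change -5.90 ± 1.0, SE; edgeR adjusted p = 0.000809). Without Control 3, none of these 3 was called lower and Elf5 was the 1 gene that was; without it and the library labelled Control 4 the count was 0. Gata3 also lost its call when any 1 Dnmt1cKO library was left out. Of the abundant genes in the list, Tfrc, the transferrin receptor, and Igf2, a growth factor, were not called by edgeR (log2 fold changes 0.49 and -1.38). Igf2, Elf5 and Gata2 were called lower by DESeq2 and by edgeR with RLE factors, and Wnt7b by DESeq2. Rhox9 was called higher by DESeq2 and by edgeR with RLE factors, but not in the main fit. It had 746 counts in Dnmt1cKO and 0 in Control. Phlda2 and Tead4 had 264 and 188 counts in Dnmt1cKO and 0 in Control, and edgeR did not call them.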

How the data were processed

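RNA was sequenced from urogenital sinus epithelium, freed from stroma with trypsin, per the labels' protocols; poly-A RNA was amplified by PCR with no molecular identifiers mentioned, so intervals and floors cover counting error only. The authors deposited RSEM expected counts per gene symbol for 12 libraries, with RSEM 1.2.3, Bowtie 0.12.9, bcl2fastq 2.17.1.14 and the build mm10 named in the submitters' processing notes. The sources used here give no annotation, parameters or use of strand. Expected counts were rounded to whole numbers. The main test was the edgeR 4.0.16 quasi-likelihood test of group alone (run under R 4.3.3), with TMM factors, filterByExpr (minimum count 10, minimum total 15) and Benjamini-Hochberg adjustment over 12761 genes; it was tested on simulated data. The edgeR test gives no SE, so each SE is the absolute log2 fold change divided by the square root of its F statistic, an approximation. Alternatives were DESeq2 1.42.0, RLE factors, library totals alone, no filter, replicate blocks and leaving libraries out. Members, lists and tests were chosen with earlier results of these data known. Every member with 10 or more counts was described, and of the placenta, prolactin and cathepsin lists the called genes and some of the most abundant. Prl, Gh, Prlr and the silent placenta genes were named besides, for what they are known to do. Placenta genes called only in alternatives were named too. Phlda2 and Tead4 were picked after their values were seen, for counts in Dnmt1cKO beside none in Control. The labels do not say that libraries of a group are separate litters, so p-values measure the spread between libraries. Between libraries that share a title number or a description code, correlations of deviations from the group means were -0.0524 to 0.0959. With only 4 Control libraries of unequal depth, such values cannot exclude pairing or a shared batch. Gene positions, neighbours and upstream windows came from RefSeq on GRCm38.p6, strands from its window table, and transcripts from GENCODE M21. Windows were aligned with Biopython 1.88.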

Additional observations from a re-analysis of the deposited data

Results flagged for a closer look

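For the 9 members with 10 or more counts, the highest or lowest library of each group was compared with the rest of its group, 18 groups in all, by its gap relative to the range of the group. Chance flags about 1 in 20 groups of normally distributed values, a rate that does not hold for skewed levels with many at 0. A group in which all but 1 library are at 0 is flagged by construction, and a group wholly at 0 cannot be flagged. In Dnmt1cKO the highest library stood far from the others for Psg23 (399 CPM, Dnmt1cKO 8), Ceacam1 (56.5 CPM, Dnmt1cKO 6), Ceacam19 (18.4 CPM, Dnmt1cKO 2), Psg29 (5.13 CPM, Dnmt1cKO 8), Ceacam12 (2.80 CPM, Dnmt1cKO 6), Cts8 (2.02 CPM, Dnmt1cKO 2), Ceacam20 (1.56 CPM, Dnmt1cKO 7) and Ceacam10 (1.02 CPM, Dnmt1cKO 1). In Control it did so for Psg29 (71.1 CPM) and Cts8 (59.7 CPM), both in the library labelled Control 4, for Psg23 (4.53 CPM, Control 3), and in Control 1 for Ceacam1 (5.53 CPM), Psg28 (2.34 CPM) and Ceacam10 (0.123 CPM).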

How the results depend on the processing

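The log2 fold change of Psg23 was 6.99 and ranged from 6.55 to 8.25 over 19 alternatives, all of which called it (edgeR or DESeq2, adjusted p 1.06e-15 to 0.0228). Members called higher numbered 1, and 2 with DESeq2; leaving out 1 library gave 1 to 2, the second being Ceacam1, whose call appeared only with DESeq2 and without Control 1 (10.49). Members called lower numbered 0 in every alternative. The fold change of Psg29 was -4.37 without Control 1 and reversed to 3.91 without the library labelled Control 4 and to 3.74 without it and Control 3; the cause was not tested. RLE factors shifted the median over all tested genes by -0.14 and library totals alone by 0.16 on the log2 scale. Placenta list genes called higher, 1 in the main fit, numbered 2 with RLE factors and with DESeq2, and 1 to 2 with 1 library left out. Those called lower, 3 in the main fit, numbered 6 with RLE factors, 7 with DESeq2, 0 without Control 3 and the library labelled Control 4, and 1 to 5 with 1 library left out. With a replicate block by description code the Psg23 fold change was 7.40 and the list had 2 genes higher and 0 lower; with a replicate block by title number (4 libraries a group) the value was 6.70 and the list had 0 and 0. The labels do not say what a shared number or code stands for, and neither block changed the number of members called. Members with counts in Dnmt1cKO and at most trace counts in Control numbered 1, and 2 with 3 counts as present, 0 with 30 counts, 0 with no Control count allowed, 3 with thinned libraries (Ceacam1, Ceacam19 and Psg23), 3 without Control 3 and the library labelled Control 4, and 0 to 4 with 1 library left out, so this number rests on a handful of reads. Control depth is the limit. At 12649930 counts, a gene with 0 counts over Control may still have a pooled level of up to 0.237 per 1e6 counts there. For a single Control library the limit was 0.396 to 5.52 per 1e6 (3 counts of its total).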
